A study of Mus musculus with 4 samples.

Results

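Cplx3, Nxph4, Moxd1 and Ctgf, 4 genes used as markers of the subplate and of cortical layer 6b, were followed through single-cell RNA libraries of the mouse ventromedial prefrontal cortex. The genes were taken from a list of 5 names, in which Ccn2 is the newer symbol of Ctgf, and the 4 count matrices hold them as 4 of 31053 features. The mice were male C57BL/6 animals injected at 8 weeks of age with rAAV2-retro viruses, which are taken up at axon ends and carried back to the cell body. Each of 5 viruses carried EGFP with its own barcode and went to 1 target, which was MD (mediodorsal thalamus), LH (lateral hypothalamus), AI (agranular insula), BLA (basolateral amygdala) or DMS (dorsomedial striatum). The prelimbic and infralimbic areas were then dissected and profiled on the 10x Genomics 3' platform. Of the 4 libraries, 3 held unsorted cells of 1 mouse each (unsorted replicates 1 to 3), and 1 held EGFP-positive cells pooled from 3 mice and enriched by FACS (sorted replicate 1). All 6 mice therefore carried the viruses, and no library came from an uninjected animal. The submitters assigned 2816, 2486, 2463 and 1603 neurons of these libraries, in that order, to 7 excitatory subtypes, named by layer and a marker gene.

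Layer 6b is the thin band of neurons that lies against the white matter, below the corticothalamic neurons of layer 6. Part of it derives from the subplate, a transient layer of early-born neurons that guides incoming thalamic axons during development. No layer 6b subtype was among the 7 subtypes, and most deep neurons of these libraries fell into L6-Syt6, the subtype named for layer 6 and Syt6, which held 5092 neurons. The data were therefore examined for where the 4 genes were read, whether single L6-Syt6 neurons carried several of them, and whether such neurons differed in their other genes and in the viral barcode.

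The 4 genes have unrelated products. Cplx3 (ENSMUSG00000039714, chr9:57599992-57606281, minus strand) encodes complexin 3, a SNARE-binding protein of the presynaptic release machinery. Nxph4 (ENSMUSG00000040258, chr10:127525473-127534559, minus strand) encodes neurexophilin 4, a secreted glycoprotein of a family that binds alpha-neurexins. Moxd1 (ENSMUSG00000020000, chr10:24223517-24302790, plus strand) encodes a copper-dependent monooxygenase related to dopamine beta-hydroxylase. Ctgf (ENSMUSG00000019997, chr10:24595442-24598683, plus strand) encodes connective tissue growth factor, a secreted matricellular protein of the CCN family and a widely used readout of YAP/TEAD transcription. Coordinates are those of the gene models on GRCm38, the build of the mm10 reference named in the submitters' processing notes.

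Because the genes were often read in the same neurons, the 250 bases before the start of Cplx3 and Moxd1, the 2 members with an entry in the RefSeq promoter table (GRCm38.p6), are shown with their E-boxes in capitals. An E-box is the motif CANNTG, bound by basic helix-loop-helix factors. CACGTG is a palindromic form of it, as CAGCTG is, and is counted among the CANNTG matches as well.
Cplx3, chr9:57606282-57606531, minus strand: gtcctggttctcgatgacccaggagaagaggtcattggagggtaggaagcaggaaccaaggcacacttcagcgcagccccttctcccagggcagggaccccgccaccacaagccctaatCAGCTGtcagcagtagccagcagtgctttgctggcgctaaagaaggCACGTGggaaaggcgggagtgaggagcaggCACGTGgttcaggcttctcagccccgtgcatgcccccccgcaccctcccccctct
Moxd1, chr10:24223267-24223516, plus strand: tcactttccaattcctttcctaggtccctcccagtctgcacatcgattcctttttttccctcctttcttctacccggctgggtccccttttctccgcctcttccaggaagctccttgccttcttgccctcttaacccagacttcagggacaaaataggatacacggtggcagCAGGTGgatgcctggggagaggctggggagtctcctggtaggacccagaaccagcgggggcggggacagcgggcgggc
The Cplx3 window held 3 E-boxes, at 131, 85 and 55 bases before the start, and those at 85 and 55 bases were CACGTG. The Moxd1 window held 1 E-box, at 78 bases, and no CACGTG. Searched on both strands over 32851 windows of the same length, CANNTG was present in 66.2% and CACGTG in 6.02%. The NR4A monomer motif AAAGGTCA (1.34% of windows), the TEAD motif GGAATG (12.6%) and the T-box half-site AGGTGTGA (1.12%) were in neither member's window. A match describes the letters of the window and is not a binding site.

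Within the excitatory neurons, the transcripts of all 4 genes came mostly from L6-Syt6. That subtype gave 88.5% to 94.5% of the excitatory UMIs (unique molecular identifiers, each 1 captured transcript) of Cplx3 across the 4 libraries, 98.8% to 100% of those of Nxph4, 83.3% to 100% of those of Moxd1 and 87.7% to 97.5% of those of Ctgf. Levels below are counts per 1000000 UMIs (CPM), taken from UMIs summed over the neurons of a subtype in a library. They are compared between cells for a gene and not between genes. The subtypes were made from the expression of the same cells, so these levels are described without a test.

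In L6-Syt6, Cplx3 stood at 10.5, 6.35 and 8.93 CPM in unsorted replicates 1 to 3 (8.60 ± 2.10, SD, n = 3) and at 6.67 CPM in the sorted library. Its next level was in L5-Htr2c, at 1.75, 2.09 and 11.1 CPM, so the spread of the libraries overlapped with L6-Syt6 because of unsorted replicate 3 alone. The remaining 5 subtypes had mean Cplx3 levels from 0.114 to 1.82 CPM.

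Nxph4 had the narrowest distribution, with 3.69, 2.57 and 3.60 CPM in L6-Syt6 of the unsorted libraries (3.29 ± 0.625, SD, n = 3) and 3.17 CPM in the sorted library. Outside L6-Syt6 it was read as 1 UMI in L2/3-Calb1 of unsorted replicate 3 and 1 UMI in L5-S100b of the sorted library. It was the only one of the 4 genes whose lowest L6-Syt6 level in any library lay above the highest level of the other subtypes in any library (sums of at least 10 neurons), a pattern shown by 556 of 14170 genes (3.92%) with a mean of at least 0.5 CPM. Moxd1 was under that mean. Nxph4 passed it narrowly, at 0.504 CPM, and only through its L6-Syt6 level, so the pattern and its share are a description and not support. In L2/3-Calb1 of the sorted library, 3 UMIs would make 2.72 CPM, above the lowest L6-Syt6 level of 2.57 CPM.

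Moxd1 was the sparsest member. It stood at 0.761, 0.764 and 0.454 CPM in L6-Syt6 of the unsorted libraries (0.660 ± 0.178, SD, n = 3), which was 26, 25 and 15 UMIs, and at 0.149 CPM (4 UMIs) in the sorted library. Within each library this was the highest of the 7 subtypes, by 0.454 against 0.446 CPM in unsorted replicate 3. Its levels in the other subtypes rested on 0 to 2 UMIs per library and cannot be ordered.

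Ctgf was read mainly in L6-Syt6 and L5-Htr2c, and was higher in L5-Htr2c. L5-Htr2c is named for Htr2c, a serotonin receptor gene of near-projecting neurons. Ctgf stood there at 89.1, 85.8 and 91.3 CPM in the unsorted libraries (88.7 ± 2.78, SD, n = 3) and at 38.3, 39.3 and 37.9 CPM in L6-Syt6 (38.5 ± 0.701, SD, n = 3), with no overlap between the subtypes. In the sorted library the L6-Syt6 level was 24.7 CPM, below the 3 unsorted libraries, while the L5-Htr2c value of 134 CPM came from 4 neurons. In the other 5 subtypes the mean Ctgf level was between 0.571 and 2.62 CPM. As L5-Htr2c had only 317 neurons in the unsorted libraries, it nevertheless gave just 8.60% to 10.3% of their excitatory Ctgf UMIs.

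**Figure D1:**
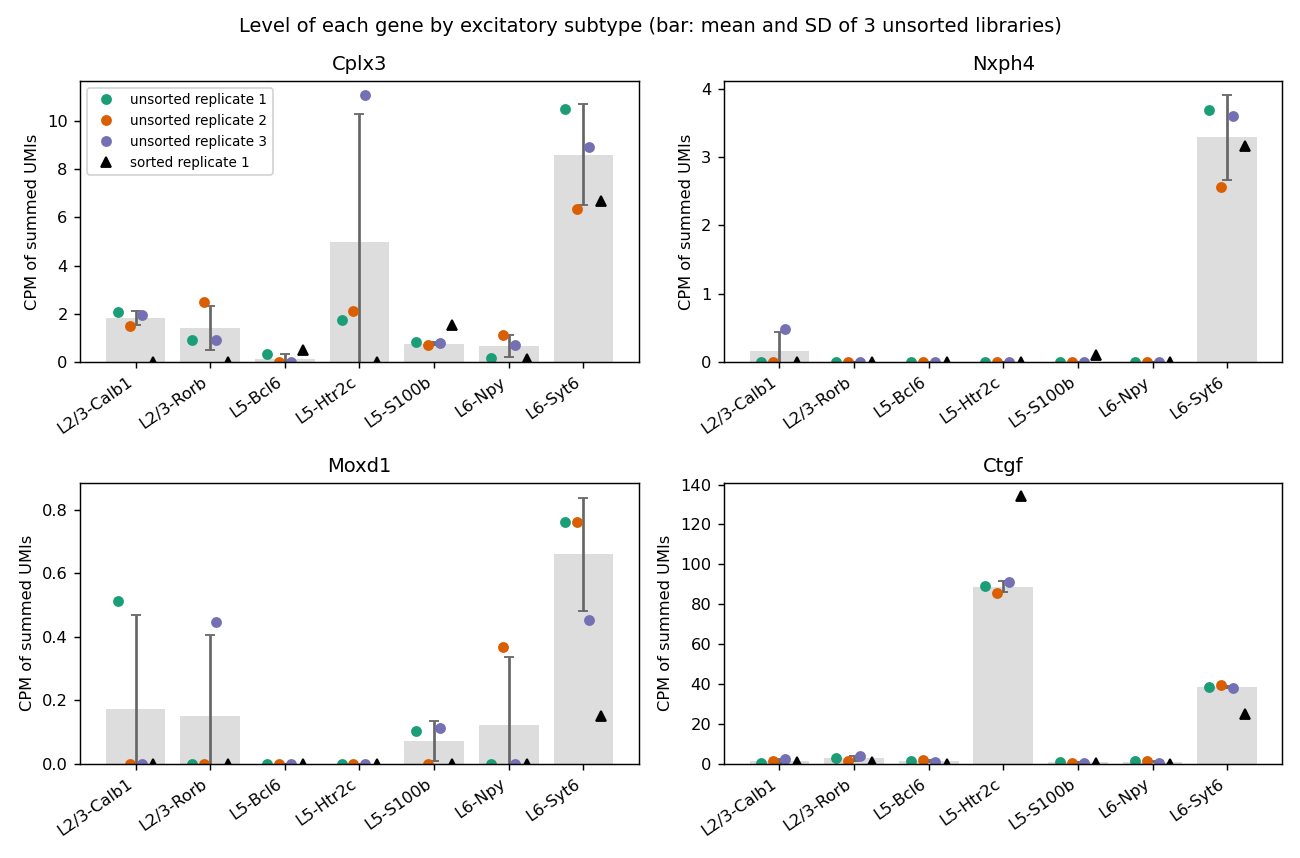
CPM of summed UMIs of each gene (y axis, own scale per gene) in the 7 excitatory subtypes (x axis). Points are the 3 unsorted libraries, triangles the sorted library, bars and whiskers the mean and SD of the unsorted libraries. Nxph4 is confined to L6-Syt6 apart from 2 UMIs, and Ctgf is highest in L5-Htr2c, at 88.7 against 38.5 CPM in L6-Syt6.

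Only a minority of L6-Syt6 neurons carried a UMI of the 3 sparser genes. Cplx3 was detected in 2.74% ± 0.625 of L6-Syt6 neurons of the unsorted libraries, Nxph4 in 4.44% ± 0.515, Moxd1 in 0.599% ± 0.120 and Ctgf in 33.9% ± 0.884 (SD, n = 3). In the sorted library, whose neurons were sequenced more deeply (median 31670 UMIs per neuron against 21362 to 23213), the shares were 3.36% (95% exact interval 2.21 to 4.89), 6.34% (4.73 to 8.29), 0.388% (0.0801 to 1.13) and 32.6% (29.3 to 36.0). These intervals, by the Clopper-Pearson method, cover counting error only. With each neuron thinned to 10000 UMIs, the unsorted shares were 1.78% for Cplx3, 2.36% for Nxph4, 0.303% for Moxd1 and 20.6% for Ctgf, and the sorted shares were 1.89%, 3.11%, 0.271% and 15%.

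Microglia, the brain's resident macrophages, gave the level of stray transcripts. Among 2888 microglia of the unsorted libraries (median 4158.5 UMIs), Cplx3 was detected in 0.341%, Moxd1 in 0.0364% and Ctgf in 0.200% of cells, and Nxph4 in 0, which allows a share of cells with a UMI of up to 0.104% at a count of 3 (0.128% by the exact 95% interval). After thinning to 2000 UMIs, Cplx3 was in 1.02% of L6-Syt6 neurons (median 23076 UMIs before thinning) and 0.150% of microglia, and Moxd1 in 0.162% and 0.0375%. For Nxph4 the thinned share was 0.626% in L6-Syt6 neurons and for Ctgf 7.0%, against 0 and 0.0749% of microglia. All 4 genes were thus above the microglial share at equal depth, but for Moxd1 that share rested on 1 UMI. In oligodendrocyte precursors, Moxd1 was in 0.447% of cells at 2000 UMIs, above its share in L6-Syt6 neurons. The L6-Syt6 share of Moxd1 is thus near the range of other cells.

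The 4 genes were read in the same L6-Syt6 neurons more often than independent detection would give. In cells thinned to 10000 UMIs (4969 of the 5092 reached that depth), Cplx3 was in 90 neurons and Nxph4 in 123, and 47 neurons had both, against 2.25 expected had the genes been detected independently within each library. The ratio of observed to expected was 22.3, 25.9 and 22.5 in unsorted replicates 1 to 3 and 11.5 in the sorted library. At this depth all 15 Moxd1 neurons carried Cplx3, against 0.289 expected, and 11 of them carried Nxph4. At 5000 UMIs it was 14 of 15, and at full depth 25 of 29. The 15 Moxd1 neurons at 10000 UMIs also all carried Ctgf.

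Ctgf, being detected in 984 of the 4969 thinned neurons, gave smaller ratios. It was in 71 of the 90 Cplx3 neurons (ratio 3.99, from 3.33 to 4.33 by library) and in 78 of the 123 Nxph4 neurons (ratio 3.24, from 2.93 to 3.76). For all 6 pairs the ratio was 2.93 or more in every library. Cells of a library are not replicates, so no p-value is attached to these ratios.

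**Figure D2:**
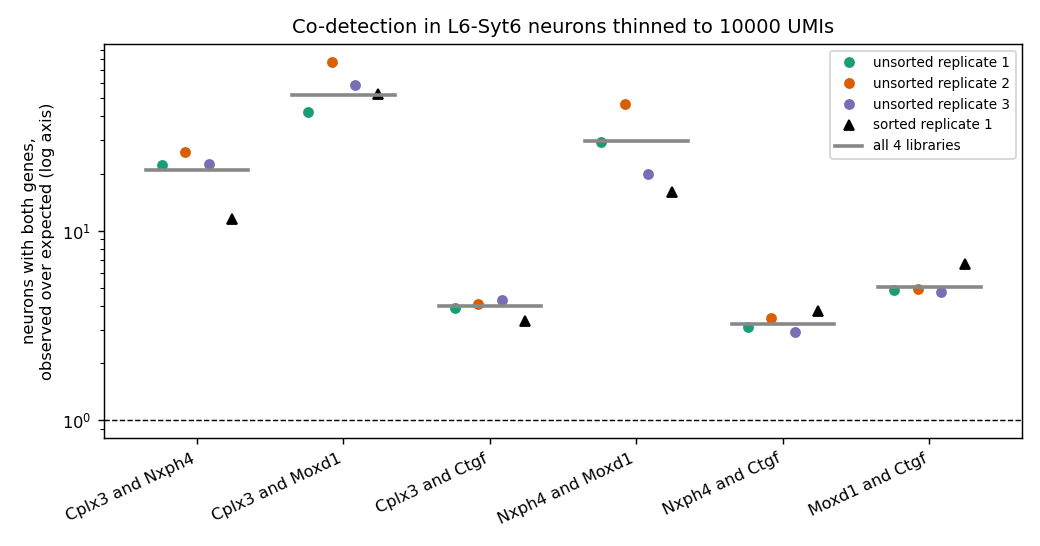
Number of L6-Syt6 neurons with both genes over the number expected from independent detection (y axis, log scale) for the 6 pairs of genes (x axis), in neurons thinned to 10000 UMIs. Circles and triangles are libraries, grey bars all 4 libraries together, and the dashed line marks a ratio of 1. Every pair lies above 1 in every library, with Cplx3 and Moxd1 highest at 51.9.

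At full depth, 3258 of the 5092 L6-Syt6 neurons had none of the 4 genes and 1515 had Ctgf alone. All 4 genes were found together in 25 neurons, and Cplx3, Nxph4 and Ctgf without Moxd1 in 45. Cplx3 and Nxph4 without Ctgf were seen in 1 neuron. Moxd1 without Cplx3 was seen in 4 neurons, 3 with Moxd1 alone and 1 with Moxd1 and Ctgf. Nxph4 was less tied to Cplx3 than the reverse: 90 neurons had Nxph4 and Ctgf without Cplx3, and 80 had Nxph4 alone. Neurons with at least 2 of the genes made up 4.24%, 3.79%, 3.47% and 4.79% of L6-Syt6 in the 4 libraries, 203 neurons in all. In L5-Htr2c, where Ctgf is common, 9 neurons had at least 2 of the genes, and none had 3.

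Neurons with several of the genes also lay together when they were clustered on other genes. The L6-Syt6 neurons were divided into 15 sub-clusters with the 4 genes and the viral feature left out. Sub-cluster 8, with 226 of the 5092 neurons (4.44%), held 114 of the 203 neurons with at least 2 genes (56.2%) and 61 of the 70 with at least 3 (87.1%). It was led by Trp53i11, Kcnab1, Clic5, C130073E24Rik, Tmem163, Kirrel3 and Svil and drew 77, 69, 59 and 21 neurons from unsorted replicates 1 to 3 and the sorted library.

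The level of all 4 genes was concentrated there. Cplx3 stood at 192, 134 and 196 CPM in sub-cluster 8 of the unsorted libraries and 263 CPM in the sorted library, and at 0.352 to 1.23 CPM in the rest of L6-Syt6. Nxph4 stood at 50.7, 32.0, 54.1 and 61.3 CPM against 1.18 to 1.83 CPM. Moxd1 stood at 15.1, 15.6, 10.5 and 6.62 CPM, while the rest of L6-Syt6 held 4 Moxd1 UMIs in all 4 libraries together. Sub-cluster 8 gave 88.5% to 94.7% of the Cplx3 UMIs of L6-Syt6, 43.5% to 66.7% of those of Nxph4 and 92.0% to 100% of those of Moxd1.

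Ctgf was higher in the same neurons but not restricted to them. It stood at 232, 216, 240 and 157 CPM in sub-cluster 8 and at 21.6 to 30.9 CPM in the rest, so that sub-cluster 8 gave only 14.4% to 29.4% of its L6-Syt6 UMIs. A second sub-cluster, number 12 (154 neurons), had 113, 149, 117 and 82.9 CPM of Ctgf and 7.21 to 18.7 CPM of Nxph4, and it held 35 of the 203 neurons with at least 2 genes. Sub-cluster 1 followed with 20. These values describe sub-clusters chosen for the genes and are not tested.

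**Figure D3:**
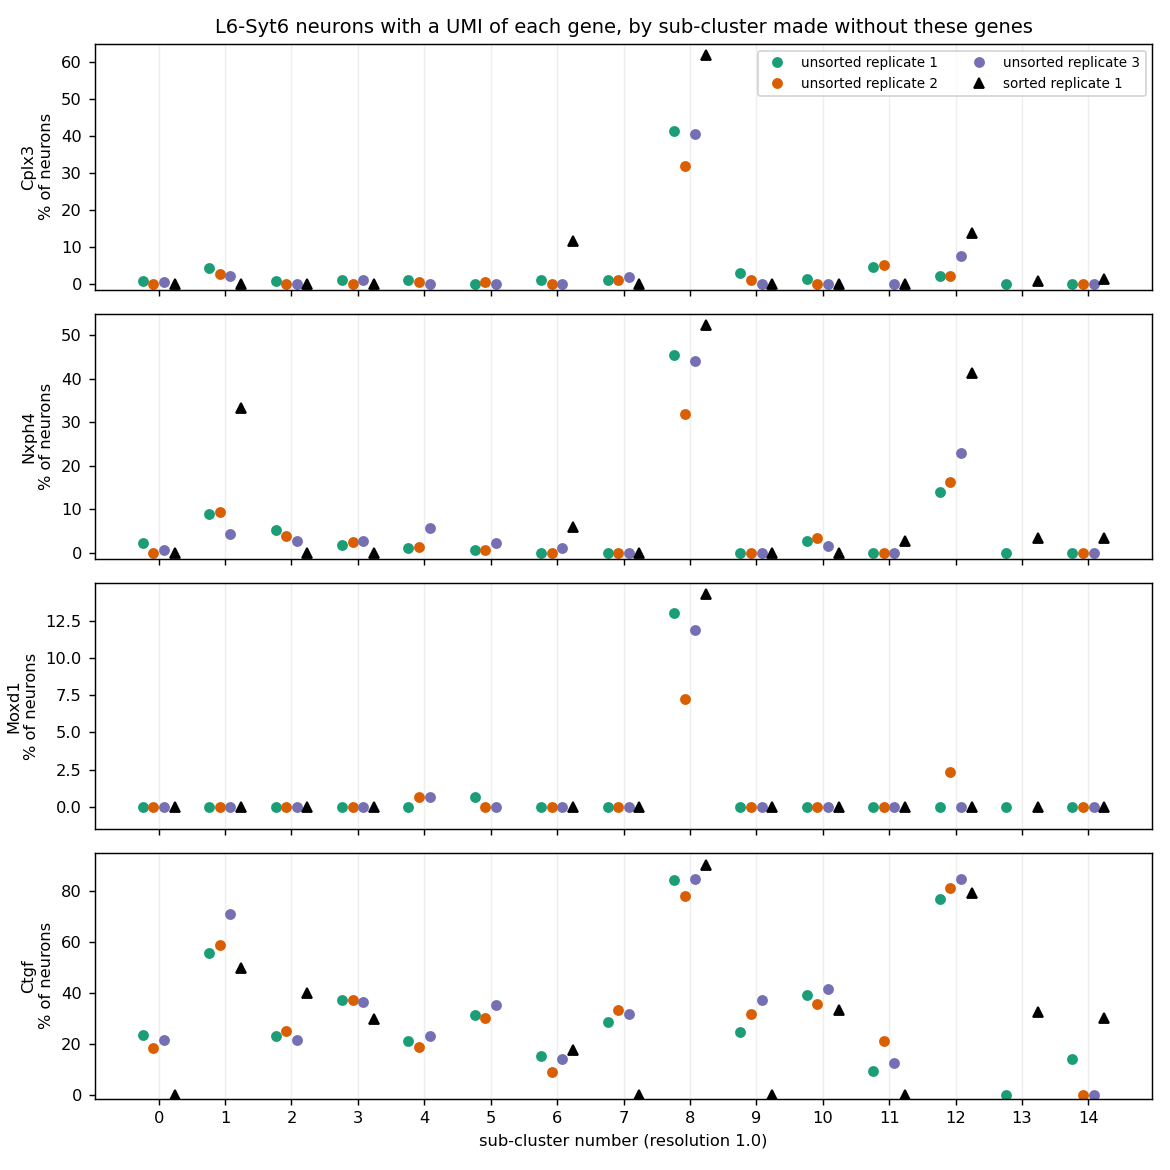
Percent of L6-Syt6 neurons with at least 1 UMI of each gene (y axes) in the 15 sub-clusters made without these genes (x axis), by library. In sub-cluster 8, Cplx3 was in 31.9% to 61.9% and Moxd1 in 7.25% to 14.3% of neurons, above every other sub-cluster, while Ctgf and Nxph4 were also frequent in sub-cluster 12.

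Sub-cluster 8 did not carry a full layer 6b profile by the other markers. Of 9 further layer 6b and subplate genes, only Tmem163 and Svil counted as its markers, while sub-cluster 12 had 3, Tmem163, Hcrtr2 and Nxph3. A marker had to be detected in at least 25% of the neurons of a sub-cluster, at 2-fold or more the median of the sub-cluster means. The 8 corticothalamic markers tried were Foxp2, Syt6, Rprm, Tle4, Ntsr1, Tbr1, Sulf1 and Hs3st4. By the same rule 0 of them counted for sub-cluster 8, as for every other sub-cluster. By detection alone, all 8 were in at least 25% of the neurons of sub-cluster 8. So were Nr4a2, Tmem163, Drd1, Svil and Nxph3 of the layer 6b list. Rprm, a p53-induced regulator of the cell cycle used as a layer 6 marker, stood at 197 ± 38.3 CPM there and 1224 ± 25.9 CPM in the rest (SD, n = 3 unsorted libraries). At a finer resolution (2.0 instead of 1.0), the corresponding sub-cluster of 119 neurons had 6 of the 9 markers by the same rule (Nr4a2, Tmem163, Lpar1, Drd1, Svil and Nxph3). It held 78.6% of the neurons with at least 3 genes. Against the other L6-Syt6 neurons, Nr4a2 was under 2-fold there, at 158 and 95.6 CPM (means of the unsorted libraries). Another sub-cluster at this resolution, of 173 neurons, had 4 of the 9 markers (Nr4a2, Tmem163, Hcrtr2 and Nxph3). The sub-clusters are therefore referred to by number.

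Each gene was next used in turn to divide the L6-Syt6 neurons, and the levels of the other 3 were fitted with edgeR's quasi-likelihood model on counts summed per library, with the library as a block. A gene was called where the adjusted p was under 0.05 and the log2 fold change was 0.5 or more in size. The 3 divisions share neurons and give the co-detection above again as levels, so the values are a description and add no separate support.

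The 90 neurons with Cplx3 had Nxph4 at 94.9, 75.5, 103 and 52.7 CPM, where the 4879 neurons without it had 1.57, 1.52, 1.86 and 2.22 CPM (unsorted replicates 1 to 3, then sorted). On the log2 scale Nxph4 was higher by 5.48 ± 0.23 (SE). Moxd1 was higher by 9.55 ± 0.56 on the log2 scale and Ctgf by 3.59 ± 0.09. Of the 12973 genes fitted, 5.64% were called higher, among them 3 of 3 members, which the co-detection fixes.

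In the 123 neurons with Nxph4, Cplx3 stood at 257, 169, 222 and 126 CPM, against 2.42 to 4.47 CPM in the neurons without Nxph4 (log2 fold change 5.90 ± 0.13). Moxd1 was higher by 6.90 ± 0.48 and Ctgf by 2.96 ± 0.08. Here 4.15% of 13027 genes were called higher. The division by Ctgf was broader, with 984 neurons. In them Cplx3 stood at 45.5, 27.8, 39.2 and 28.4 CPM, against 0.270 to 2.62 CPM in the others (log2 fold change 4.92 ± 0.15), with Moxd1 higher by 5.69 ± 0.45 and Nxph4 by 3.10 ± 0.16. In this division 2.51% of 13174 genes were called higher. Moxd1 itself could not be used, since it was detected in only 2 to 7 thinned neurons per library.

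The other genes of these neurons were examined by comparing the 108 L6-Syt6 neurons with at least 2 of the 4 genes, 36, 26, 29 and 17 by library, with the 3924 neurons that had none. Both sets were chosen after thinning to 10000 UMIs. The 4 genes chose the neurons and get no test here. Of 12804 other genes tested, 2263 (17.7%) were called, 899 higher (7.02%) and 1364 lower (10.7%), with a median log2 fold change over all genes of -0.03.

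Of the 9 other layer 6b and subplate genes, 7 rose and none fell, with a median log2 fold change of 1.21. Tmem163, which encodes a zinc transporter of synaptic vesicles, stood at 46.6, 45.4, 68.0 and 69.8 CPM against 0.502 to 1.25 CPM, a log2 fold change of 5.91 ± 0.27 (edgeR adjusted p = 1.10e-33). Svil, which encodes the actin-binding protein supervillin, rose by 5.51 ± 0.31, from 0.505 to 1.05 CPM up to 31.8 to 40.3 CPM. For both genes the 2 sets of neurons were far apart in every library.

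The receptor genes of the list and Nr4a2 changed less. Nr4a2, an orphan nuclear receptor of subplate and claustral neurons, stood at 209, 207, 198 and 213 CPM against 79.9 to 95.3 CPM (log2 fold change 1.20 ± 0.08). Drd1, the dopamine D1 receptor, rose by 1.20 ± 0.12, and Lpar1, a lysophosphatidic acid receptor, by 2.15 ± 0.29. Hcrtr2, the orexin receptor through which orexin excites layer 6b neurons, rose by 1.27 ± 0.30 (edgeR adjusted p = 0.000478), a call lost without unsorted replicate 1 (log2 1.07) and with sums of thinned counts (0.83).

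Inpp4b, a phosphoinositide phosphatase, was 0.40 ± 0.25 and Trh, which encodes thyrotropin-releasing hormone, 1.16 ± 0.53 on the log2 scale, and neither was called. Trh turned to -0.12 without unsorted replicate 1.

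The layer 6 corticothalamic genes were not lost as a group. Of 10 tested, 3 fell and none rose, with a median log2 fold change of 0.21. Rprm fell by 3.73 on the log2 scale (SE 0.11), from 1301, 1274, 1268 and 1310 CPM in the neurons without the 4 genes to 143, 145, 83.9 and 20.9 CPM. Syt6, the synaptotagmin that names the subtype, fell by 1.35 (SE 0.11) and Foxp2, a forkhead transcription factor, by 0.80 (SE 0.08). Foxp2 fell below the fold limit when detection was read in unthinned counts (-0.49). The other 7 were not called: Tle4, Ntsr1, Sulf1, Fezf2, Grik3 and Hs3st4 were between 0.21 and 0.47, and Tbr1, the T-box factor of early-born deep neurons, was -0.29.

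**Figure D4:**
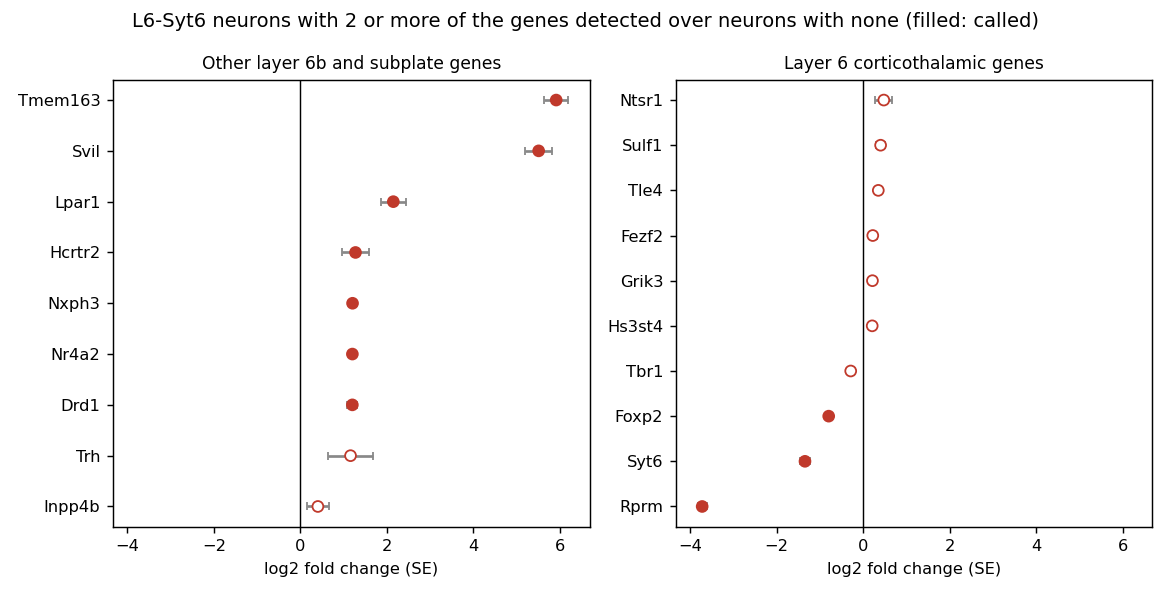
Log2 fold change (x axis, whiskers SE) between L6-Syt6 neurons with at least 2 of the 4 genes and neurons with none, for the other layer 6b and subplate genes and the layer 6 corticothalamic genes. Filled points were called. Tmem163 (5.91) and Svil (5.51) lead the layer 6b list, while Rprm (-3.73), Syt6 (-1.35) and Foxp2 (-0.80) were the called corticothalamic genes.

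Relatives of the 4 genes did not move as one. Of 8 tested family members, 3 rose and 3 fell. Cplx2, the main complexin of excitatory cortical neurons, fell from 295, 303, 319 and 564 CPM to 121, 150, 117 and 152 CPM (log2 fold change -1.47 ± 0.09), while Cplx1 rose by 0.70 ± 0.09. Among the neurexophilins, Nxph3, itself on the layer 6b list, rose by 1.21 ± 0.06, and Nxph2 had 0 UMIs against 422, at least 3.75-fold lower at a floor of 3 UMIs over the group. Of the CCN genes, Nov (Ccn3) rose by 2.05 ± 0.10, Wisp1 (Ccn4) fell by 1.02 on the log2 scale (SE 0.22), and Cyr61 (Ccn1), at -0.29 ± 0.09, was not called. Nxph1 was not called either (0.94 ± 0.82).

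Among the genes for binding partners and the release machinery, the neurexins Nrxn2 and Nrxn3 and the SNARE-related genes Stx1a, Snap25, Vamp2 and Syt1 were between -0.43 and 0.30 on the log2 scale and were not called. Of 5 YAP/TEAD pathway genes tested, Yap1 rose by 0.89 ± 0.32 (edgeR adjusted p = 0.0284), and 0 fell. That call was lost with DESeq2, without any 1 of the unsorted replicates, without the low-count filter and with thinned sums. Wwtr1, Tead1, Amotl2 and Cyr61 were not called.

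Lists for 2 neighbouring cell types were run beside these. Of 4 tested claustrum genes, Nr4a2 rose, Lxn fell by 1.09 on the log2 scale (SE 0.41, a call lost under 6 of the alternatives), and Gnb4 and Synpr were not called. None of the 3 tested near-projecting genes, Tshz2, Htr2c and Lypd1, was called.

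Over all genes, those with the greatest rise were 5930412G12Rik, Kcnj5, Adgrg6, Ifi27l2a, Tmem163, Fbxl7, Svil, Kcnip1, C130073E24Rik and Bhlhe22. The uncharacterised transcript 5930412G12Rik gave 27 UMIs against 0, at least 338-fold higher at a floor of 3 UMIs over the group. Kcnj5, an inwardly rectifying potassium channel subunit, gave 25 UMIs in the 108 neurons and 2 in the 3924. Adgrg6, an adhesion G protein-coupled receptor, stood at 15.1, 33.6, 27.5 and 8.72 CPM against 0.194 CPM or less. Bhlhe22, a basic helix-loop-helix factor of cortical projection neurons, stood at 18.9 to 37.0 CPM against 0.588 to 0.866 CPM.

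At the other end, 6 of the 10 genes with the greatest fall, taken among called genes with a mean of at least 5 CPM in the neurons without the 4 genes, had 0 UMIs in the 108 neurons. They were Gm10635 (at least 16.6-fold lower), Cpa6 (10.0), Cemip (8.97), Kctd8 (7.98), Metrnl (5.87) and Htr7 (4.55), with bounds from the same floor. Cpa6 is a secreted carboxypeptidase, Cemip a hyaluronan-binding protein, Kctd8 an auxiliary GABA-B receptor subunit and Htr7 a serotonin receptor. Grp, the gene of gastrin-releasing peptide, gave 1 UMI against 4402, Mylk 1 against 1097 and Blnk 1 against 1085. Igfbp4, an insulin-like growth factor binding protein, gave 3 against 3500.

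Markers of other cells were counted in the same sums. The 5 inhibitory markers together stood at 3.78 to 6.98 CPM in the neurons with at least 2 of the genes and 0.502 to 5.60 CPM in the neurons with none. The Lamp5-interneuron list stood at 321 to 409 CPM against 226 to 287 CPM, of which Id2 alone made 319 to 403 CPM and 223 to 278 CPM, while Ndnf and Npy were at 0 in the neurons with at least 2 genes. The 5 macrophage and 5 fibroblast markers were all at 0 in those neurons. Their sums in the neurons with none were at most 0.606 and 0.719 CPM, under the 1.13 CPM that 3 UMIs make in the smaller set. These zeros are therefore uninformative. The 5 endothelial markers stood at 8.81 to 17.4 CPM against 4.65 to 9.27 CPM. The 5 astrocyte markers stood at 8.68 to 13.8 CPM against 14.9 to 23.2 CPM. The microglial, oligodendrocyte and oligodendrocyte precursor lists overlapped between the sets. The mural list ranged from 1.74 to 70.9 CPM against 11.7 to 20.0 CPM, almost all of it Rgs5, with Pdgfrb, Kcnj8, Acta2 and Myl9 at 0. In the neurons with none, those genes were at 0.902 CPM or less, also under that floor. Vtn stood at 0 to 3.78 CPM against 0.456 to 2.63 CPM. The part of Id2, Rgs5 and the endothelial markers in the result was not tested.

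The retrograde virus was read as raw UMIs of 1 feature named barcode, which does not separate the 5 targets. Whether it counts the transcripts of all 5 viruses could not be tested from the files, so neurons with 0 such UMIs are not shown to be free of virus. L6-Syt6 neurons with 5 or more such UMIs (1635) were compared with neurons with 0 (2327) by the same test. Cplx3 stood at 2.53, 4.80, 2.34 and 2.50 CPM in the neurons with 5 or more and at 9.53, 7.65, 14.3 and 6.69 CPM in those with 0, with no overlap between the sets. It fell by 1.61 on the log2 scale (SE 0.25, edgeR adjusted p = 0.00967). Nxph4 stood at 2.44, 1.53, 2.34 and 1.72 CPM against 4.06, 3.02, 4.90 and 2.97 CPM and fell by 0.86 (SE 0.17, edgeR adjusted p = 0.0185).

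Both calls depended on single libraries. Cplx3 was no longer called without unsorted replicate 1 (-1.52) or 3 (-1.23), or with a limit of 1 barcode UMI (-0.57). Nxph4 was no longer called when any 1 unsorted replicate was left out (-0.94 to -0.78), with DESeq2 (-0.85), with that lower limit (-0.52) or without the library block (-0.96). Its direction was the same in 4 of 4 libraries.

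Ctgf, at 31.3, 34.3, 27.7 and 20.4 CPM against 39.3, 44.5, 46.6 and 18.6 CPM, was lower in the 3 unsorted libraries and higher in the sorted library. Its log2 fold change of -0.39 ± 0.10 (edgeR adjusted p = 0.0450) was under the fold limit and was not called. Moxd1 did not pass the low-count filter, with 0.187, 0.102, 0 and 0 CPM against 1.17, 1.13, 0.605 and 0.371 CPM. Thus 2 of the 3 members tested were called lower, against 0.867% of the 13030 genes tested. Cplx3 and Nxph4 were often read in the same L6-Syt6 neurons, so the 2 calls are not separate observations.

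The levels did not follow the number of barcode UMIs steadily. Neurons with 1 to 4 barcode UMIs had 24.6, 5.26, 5.39 and 16.2 CPM of Cplx3, so in unsorted replicate 1 and the sorted library this middle set was the highest of the 3. Neurons with 5 or more barcode UMIs were sequenced more deeply than those with 0, for example with medians of 24582 and 21684 UMIs in unsorted replicate 1. The mural list also moved, from 24.6 to 35.7 CPM in neurons without barcode UMIs to 6.31 to 11.6 CPM in those with 5 or more, and Rgs5 made most of it (20.2 to 34.5 against 5.83 to 9.46 CPM). Of the same list, Pdgfrb, Kcnj8 and Acta2 were at 0.484 CPM or less in both sets. Vtn was at 0.743 to 3.20 CPM in neurons without barcode UMIs and 0.417 to 1.84 CPM in those with 5 or more. Myl9 was at 0.307 to 0.593 and 0.0595 to 0.509 CPM. The part of depth and of the mural markers in the result was not tested.

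**Figure D5:**
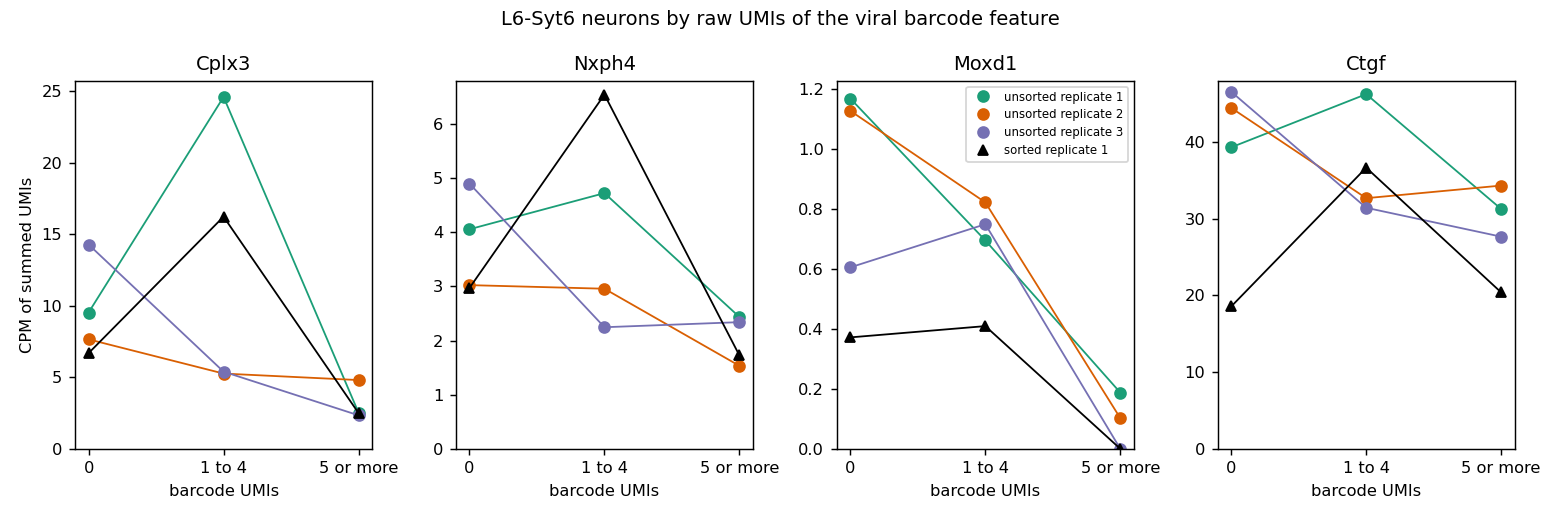
CPM of summed UMIs of each gene in L6-Syt6 neurons (y axes, own scale per gene) with 0, 1 to 4 and 5 or more raw UMIs of the viral barcode feature (x axis), 1 line per library. Cplx3, Nxph4 and Moxd1 were lower at 5 or more than at 0 in all 4 libraries, and Cplx3 peaked at 1 to 4 in unsorted replicate 1 and the sorted library.

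The share of neurons with several of the genes differed in the same direction. This share, and that of sub-cluster 8 below, rest on many of the same neurons as the levels above and add no separate support. In thinned counts, at least 2 genes were found in 1.17%, 1.30%, 0.802% and 0.688% of L6-Syt6 neurons with 5 or more barcode UMIs and in 3.02%, 2.03%, 3.15% and 3.66% of those with 0. The sets did not overlap, and the difference of -1.98 percentage points was in the same direction in 4 of 4 libraries (exact paired permutation test over libraries, two-sided p = 0.12, the smallest this design allows). Seen from the other side, 18.2%, 5.80%, 10.2% and 28.6% of sub-cluster 8 had 5 or more barcode UMIs, against 29.1%, 28.2%, 28.0% and 57.8% of the other L6-Syt6 neurons. That difference was -20.1 percentage points, lower in 4 of 4 libraries (exact paired permutation test, p = 0.12). With the cells thinned to 10000 UMIs it was -5.74 points and lower in 3 of 4. At a limit of 1 barcode UMI it was -18.8 points in unthinned and -22.2 points in thinned cells, lower in 4 of 4 each time.

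Over all excitatory neurons, Cplx3 fell by 2.00 on the log2 scale (SE 0.27, edgeR adjusted p = 0.0222) and Nxph4 by 1.61 (SE 0.23, edgeR adjusted p = 0.0256) in neurons with 5 or more barcode UMIs. These were 2 of 3 members tested, against 0.833% of 14164 genes called lower, and the 2 calls again share neurons. Ctgf was not called (-1.20 ± 0.28, edgeR adjusted p = 0.0793). The subtypes were unequal between these sets: L6-Syt6 made up 38.3% to 41.2% of the neurons with 5 or more UMIs and 67.7% to 71.1% of those with 0 in the unsorted libraries, and 49.1% and 47.5% in the sorted library. With any 1 unsorted replicate left out, no gene at all was called, although 1515 to 1559 genes had an unadjusted p under 0.05, and 1386 genes were called without the sorted library. The members did not pass the low-count filter within L2/3-Rorb, L5-S100b or L6-Npy, and the other subtypes had too few neurons.

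Each member was also found in cells outside the excitatory neurons, where the 4 genes parted. Cplx3 was frequent in inhibitory neurons, at 50.0, 62.3 and 50.5 CPM in the unsorted libraries (54.2 ± 6.97, SD, n = 3) and in 20.7% of 1179 cells. Within them it was highest in a cluster led by Npy, Cox6a2 and Crhbp (160 ± 24.0 CPM, 49.4% of cells). Lamp5 was detected in 43.5% of the 246 inhibitory neurons with Cplx3 and in 2.44% of the 941 without, and Ndnf in 30.9% and 6.38%. Of the other genes tried, Id2 was in 63.0% and 28.6%, Reln in 52.8% and 45.1%, and Npy in 43.5% and 35.6%. Npy was lower with Cplx3 in unsorted replicate 1 (34.5% against 35.9%). Vip was as frequent as Lamp5 with Cplx3 but did not differ, at 42.7% and 43.9%. Among non-neuronal cells it was read in the oligodendrocyte cluster led by Enpp6, Bmp4 and Gpr17, at 13.8, 50.2 and 26.0 CPM. Astrocytes had no Cplx3 UMI in 514 cells (median 3414 UMIs), which allows a share of cells with a UMI of up to 0.584% at a count of 3 (0.715% by the exact 95% interval).

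Moxd1 was 26.7 ± 2.00 CPM in inhibitory neurons and was led there by the Sst cluster, with 47.1, 46.1 and 47.0 CPM and 31.2% of 376 cells. Sst was found in 81.3% of the 155 inhibitory neurons with Moxd1 and in 30.8% of the 1032 without. Nos1 was in 41.3% and 20.6% of these sets, and Chodl in 1.94% and 3.00%. Nxph4 was in the same Sst cluster at 10.9 ± 3.77 CPM, and Sst was in 80.4% of 56 inhibitory neurons with Nxph4 and 35.3% of 1131 without. Cplx3 and Moxd1 thus had their highest inhibitory levels in different clusters.

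Nxph4 and Ctgf were also read in cells of the vessel wall. Nxph4 stood at 52.1, 46.4 and 52.5 CPM in a mural cluster led by Vtn and Kcnj8 (pericyte genes), in 11.4% of 510 cells. Ctgf stood at 334, 308 and 328 CPM in the mural cluster led by Acta2, Tagln and Myh11, genes of smooth muscle, and in 51.4% of its 96 cells. It was at 41.6 ± 7.29 CPM in endothelial cells and at 1747, 894 and 1343 CPM in 22 fibroblasts. A cluster of 26 cells led by Trp73, Nhlh2, Ndnf, Reln and Lhx1, which met too few fixed markers to be named, had 125, 56.4 and 118 CPM of Nxph4.

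The genes most like each member across the 27 sums of a library and subtype with at least 10 neurons were ranked by Pearson's r of log2(CPM + 1) over 10519 genes, as a description, since the sums share libraries and depth. For Nxph4 they were Ighm (r = 0.94), Syt6, Rps6kl1, Sla and Hsp90ab1, and for Ctgf Mgat4c (0.97), Rcan3, Gm47033, Tle4 and Asl. For Cplx3, Nsfl1c (0.90), Pak1ip1, Slc25a4, Wdr45 and Gm40518 came first. The values for Moxd1 were lower, with Cdk5rap3 at 0.75 followed by Abcd4, Stmn4, Dctn2 and Dalrd3. Only genes with a mean of at least 5 CPM could be ranked. Cplx3, Nxph4 and Moxd1 had means of 2.37, 0.504 and 0.136 CPM, so their absence from these lists is not a result. Ctgf, at 15.9 CPM, could be ranked and was not among the 5 genes most like another member. None of the 5 nearest genes of any member was shared.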

How the data were processed

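Single-cell RNA libraries of 3 unsorted mice and 1 FAC-sorted pool were aligned to mm10 with Cell Ranger by the authors, who filtered and normalised them in Seurat 3.1.4 and clustered the cells with the Leiden algorithm in Scanpy, per the labels and methods. The deposited matrices hold raw UMI counts per gene and cell, and the deposited metadata assign neurons to subtypes. Total counts were 87841541, 83065993, 83882837 and 54749198 UMIs for unsorted replicates 1 to 3 and the sorted library, and libraries shared 0 to 4 neuron barcodes pairwise. No other samples' columns were present. All neurons of the metadata were used, and no doublet caller was run. Cells outside the metadata needed 1000 to 60000 UMIs, 500 to 8000 detected genes and a mitochondrial share below 20%, and were clustered without the 4 genes in scanpy 1.11.5 (2000 variable genes, 30 components, 15 neighbours, Leiden resolution 1.0). A cluster was named from at least 3 markers. Counts were summed per library and cell set and tested with edgeR 4.0.16 (TMM, filterByExpr, quasi-likelihood, Benjamini-Hochberg), keeping contrasts with at least 10 cells per library and set. Both sets of a contrast come from the same library, so library was a block. Deviations of the 2 sets correlated within a library at 0.101, 0.0563, 0.103 and 0.271 for neurons with at least 2 genes against none, and at 0.243 to 0.555 for the barcode contrast in L6-Syt6. Counts were also simulated with a fixed dispersion that was not estimated from these data, so the recovery need not hold for the real contrasts. For at least 2 genes against none (12586 genes), 58% of 2-fold and 84% of 4-fold changes were recovered, with 6 false calls among 148. For the barcode contrast in L6-Syt6 (12921 genes) 82% and 98% were recovered, with 5 false calls among 185. The genes and lists were chosen with earlier results of these data known. Named were the listed genes, of which 2 are not reported here, the 10 called genes with the highest and the 10 with the lowest fold change that moved alike in 4 libraries at a mean of at least 5 CPM in the higher set, and the 5 genes most like each member. Alternatives covered DESeq2 1.42.0, RLE scaling, no low-count filter, no replicate block, other depths, limits and resolutions, and each library left out.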

Additional observations from a re-analysis of the deposited data

Results flagged for a closer look

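Ctgf moved one way in the unsorted libraries and the other way in the sorted library when L6-Syt6 neurons with 5 or more barcode UMIs were set against those with 0. On the scale of log2(CPM + 0.5), the difference was 0.13 in the sorted library and -0.33, -0.37 and -0.74 in unsorted replicates 1 to 3. Over all excitatory neurons it was 0.26 in the sorted library and -1.36, -1.27 and -1.72 in the unsorted libraries. With 1 sorted library, the difference between sorted and unsorted cells was not tested. The sorted set with 0 barcode UMIs held 94 L6-Syt6 neurons, and its EGFP gate selected for virus.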

How the results depend on the processing

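Of 288 alternative values for the main results, 227 were kept. A fold change was kept if its direction and its side of the threshold stayed. A level, share, ratio or share difference was kept if it stayed within the replicate spread, and a number of called genes if it stayed near the main number. Only fold changes could be labelled as reversed, and none of those for the main results was. Of 611 for listed genes, all fold changes, 571 were kept and 12 reversed, all for genes that were not called. The reversed log2 fold changes (neurons with at least 2 genes against none) were, for Amotl2, -0.0034 with no low-count filter, -0.20 without unsorted replicate 3 and -0.26 without the sorted library (0.52 without unsorted replicate 2); for Gnb4, 0.033 without unsorted replicate 2 (-0.44 without replicate 1), 0.22 with detection in unthinned counts and 0.080 with thinned sums; and for Lypd1, 0.18 without the sorted library (-0.48 without unsorted replicate 1), 0.34 with unthinned detection and 0.17 with thinned sums. Cyr61 (0.046) and Syt1 (-0.0029) reversed with unthinned detection, and Trh (-0.12) without unsorted replicate 1, against 1.58 without the sorted library. The cause was not tested.

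Without the replicate block, 1933 genes were called in place of 2263 for at least 2 genes against none, 293 in place of 587 for Ctgf, 75 in place of 218 for the barcode in L6-Syt6 and 384 in place of 331 in all excitatory neurons, and Nxph4 (-0.96) lost its L6-Syt6 barcode call. DESeq2 called 354 genes for Ctgf and 514 for the barcode in all excitatory neurons, where no low-count filter gave 508. In the barcode contrast of L6-Syt6, leaving out 1 library gave 28 to 309 genes, with Cplx3 at -2.02 to -1.23, its call lost without unsorted replicate 1 (-1.52) or 3 (-1.23), and Nxph4 at -0.94 to -0.78 without an unsorted replicate. A limit of 1 barcode UMI gave 27 genes, with Cplx3 at -0.57 and Nxph4 at -0.52, and Nxph4 was -0.85 with DESeq2. In all excitatory neurons, leaving out 1 library gave 0 to 1386 genes by edgeR, with Cplx3 at -2.23 to -1.70 and Nxph4 at -1.81 to -1.42, calls lost with any 1 unsorted replicate left out, and -1.09 for each at the lower limit. Ctgf there passed the threshold with DESeq2 (-1.07), with no low-count filter (-1.18) and without the sorted library (-1.48), with -1.48 to -0.95 over the left-out libraries.

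Detected shares in L6-Syt6 at 10000 and 5000 UMIs were 1.78% and 1.55% for Cplx3, 2.36% and 1.44% for Nxph4, 0.303% and 0.348% for Moxd1 and 20.6% and 12.3% for Ctgf, and 51.5% and 32.6% for Ctgf in L5-Htr2c, all under the full-depth shares. Co-detection ratios at 5000 UMIs and with depth bins at full depth were 5.61 and 2.24 for Cplx3 with Ctgf, 50.5 and 16.1 for Nxph4 with Moxd1, 3.82 and 1.90 for Nxph4 with Ctgf and 7.58 and 2.67 for Moxd1 with Ctgf, and with depth bins 9.37 for Cplx3 with Nxph4 and 20.7 for Cplx3 with Moxd1. At sub-cluster resolutions 0.5 and 2.0, 76.4% and 43.8% of neurons with at least 2 genes, and 94.3% and 78.6% of those with at least 3, lay in the corresponding sub-cluster. At class resolution 2.0, Cplx3 was 44.2 and Moxd1 20.8 CPM in inhibitory neurons and Ctgf 105 CPM in mural cells. The barcode difference of sub-cluster 8 in thinned cells was -5.74 points at 5 or more barcode UMIs and -22.2 points at 1 or more. Both alternatives were chosen after seeing the data, as were the other alternatives for the 2 share differences by barcode and the left-out libraries for the sub-clusters. The contrast of neurons with 3 or more genes was not run, since the sorted library had 5 such neurons. Moxd1 rested on 70 UMIs over all L6-Syt6 neurons.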
